A study of Mus musculus with 54 samples.

Results

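The genes examined here are the nuclear genes for the subunits of respiratory chain complexes I to IV. They were chosen by symbol: Nduf followed by a, b, c, s, or v and a number, Sdha to Sdhd, Uqcr, and Cox4 to Cox8, leaving out symbols with -ps. A mean of at least 10 reads per library in each of the 2 count tables was also required. Of 74 symbols that matched, 3 carried -ps and 11 were under the minimum, so that 60 genes of 55385 in the tables were kept. They comprised 35 genes of complex I, 4 of complex II, 8 of complex III, and 13 of complex IV, on 18 chromosomes, with 3 genes on chromosome X. Ndufa4 and Cox7a2l were counted with complex IV. Just inside the minimum was Cox6b2, with means of 18.0 and 13.1 reads in the 2 tables, followed by Cox7c with 114.5 and 68.2. Just outside it were Cox7a1, with 5.03 and 6.06 reads, and Cox4i2, with 3.86 and 1.06, both isoforms known from other tissues. Ndufab1, Cyc1, cytochrome c, and the subunits encoded in mitochondrial DNA are not covered by these symbols.

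The respiratory chain lies in the inner mitochondrial membrane. Complex I takes electrons from NADH and complex II takes them from succinate, both hand them to ubiquinone, complex III passes them on to cytochrome c, and complex IV passes them to oxygen. Complexes I, III, and IV pump protons, and the gradient drives ATP synthase. Naive CD4+ T cells are small resting cells, and their activation through the TCR and CD28 is known to be followed by growth and by an increase in mitochondrial mass. CD5 and CD6 are surface receptors that modulate TCR signals, and LAT is the adaptor that connects the triggered TCR to most of its downstream pathways.

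RNA-seq libraries of naive CD4+ T cells came from 2 experiments that were analyzed apart. In the CD5/CD6 experiment (36 libraries), WT, Cd5-/-, Cd6-/-, and Cd5-/-Cd6-/- cells were isolated with a magnetic kit. In the LAT experiment (18 libraries), WT (hDTR+) and Lat-/- (hDTR-) cells were sorted from mice with a Lat fl-dtr allele and a maT-Cre transgene, so that the WT cells there also carried the modified allele. All mice were C57BL/6, 8 to 10 wk old, and cells came from pooled lymph nodes and spleens. Every genotype was sampled unstimulated (0 h) and after 4 and 20 h with anti-CD3 bound to the plate at 3 µg/ml and anti-CD28 in solution at 1 µg/ml, with 3 libraries in each group. The Cd6-/- allele is a small deletion around the start codon, so that Cd6 reads can remain, and the Cd5-/-Cd6-/- allele is a deletion that spans both neighboring genes.

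RefSeq promoter windows (GRCm38.p6, 250 bases before to 50 after the start of the gene) were found for 50 of the 60 genes. Binding motifs of factors known to act on such genes were searched on both strands, and the windows below are shown because the regulators of these genes are described further on. A gene was counted once if any of its windows held the motif. The NRF1 motif GCGCANGCG stood in 13 of the 50 genes (26%) and in 7.03% of all 27025 genes with a window. These 27025 genes were not filtered by reads, unlike the 50, so that the shares compare unlike sets. The ETS motif CCGGAAG, which the factor GABP is known to bind, stood in 11 (22%, against 9.93%), the YY1 motif AAGATGGC in 7 (14%, against 3.19%), the E-box CACGTG in 2 (4%, against 8.09%), and TATAAA in 4 (8%, against 15.7%). The first lines come from genes whose RNA was higher at 20 h in both experiments, with the motif in capitals and 5′ to 3′ on the strand of the gene (- strand for all those shown).
Sdhd NRF1, chr9:50603912-50603936: gctggggtGCGCACGCGcggtggca
Sdhd ETS, chr9:50603881-50603903: tctcctgcCTTCCGGttcacgct
Sdha NRF1, chr13:74350279-74350303: ggcgtgttGCGCAGGCGcagaatct
Ndufa5 NRF1, chr6:24527700-24527724: tgtgagctGCGCAGGCGcaaatcta
Ndufb6 ETS, chr4:40279639-40279661: tccttgttCTTCCGGtcccctcc
Ndufs6 NRF1, chr13:73328481-73328505: ctgctgtgCGCCTGCGCcggcactt
The next lines come from genes whose RNA was not called higher at 20 h in either experiment.
Ndufa6 NRF1, chr15:82354251-82354275: tggcaccgCGCGTGCGCacgctgaa
Ndufb10 NRF1, chr17:24724409-24724433: acctttctGCGCAGGCGtagaggtc
Uqcrh ETS, chr4:116075066-116075088: atgccgcaCTTCCGGccaggtcg
Where the capitals read CTTCCGG or a reversed NRF1 motif, the match lies on the other strand. The Sdha window held 3 NRF1 matches, of which 1 is shown. None of the 5 motifs was found in the windows of Cox7a2l, Ndufa12, Ndufv3, or Cox5a. At 20 h, 11 of 13 genes with the NRF1 motif and 30 of 37 without it were higher in WT libraries of the CD5/CD6 experiment, a count given without a test.

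Depth was 20554354 to 45222554 counted reads per library in the CD5/CD6 experiment and 17784644 to 28501095 in the LAT experiment. Values per library are given as CPM, the reads of a gene as a share of its library total, scaled by TMM factors. Lat was at 5.69 to 19.1 CPM in Lat-/- libraries and at 92.2 to 350.8 CPM in WT libraries of that experiment. A pair of unstimulated libraries went against their labels. In the library labelled Cd5-/- replicate 2, Cd5 stood at 719.5 CPM against 128.6 and 105.2 in the other 2. Its Cd6 level was 328.6 CPM, against 1298 and 1084. In the library labelled Cd6-/- replicate 2, Cd5 stood at 172.5 CPM against 724.2 and 718.6, and Cd6 at 1203 against 349.5 and 251.4. Each thus had the Cd5 and Cd6 levels of the other label, as if the pair had been exchanged. The labels were kept, and counts and medians that rest on these libraries are in part also given without both. CD4+ T cell markers summed to 5946 to 7880 CPM at 0 h, 5256 to 8123 at 4 h, and 3416 to 4036 at 20 h in the CD5/CD6 experiment, with 7 of 8 lower and 1 higher at 20 h in WT cells. In the LAT experiment they summed to 6828 to 9093, 5897 to 7725, and 3521 to 6613 CPM at these times. Sums for other cells fell with time in the CD5/CD6 experiment: B cell markers from 74.0 to 638 CPM at 0 h to 1.39 to 6.01 at 20 h (8 of 8 lower in WT cells), erythroid and platelet markers from 220.9 to 3733 to 1.93 to 61.6 (5 of 5 lower), and myeloid markers from 114.4 to 651 to 56.5 to 95.6 (7 of 8 lower). NK cell markers summed to at most 60.7 and CD8+ T cell markers to at most 85.1 CPM in any library. In the sorted cells of the LAT experiment, B cell markers summed to at most 4.90 and erythroid and platelet markers to at most 2.497 CPM at any time, while myeloid markers summed to 63.9 to 129. In bulk RNA, fewer cells of a type and less RNA per cell cannot be told apart. Between 0% and 31.6% of the 50-base words in the exons of these genes were shared with other genes, pseudogenes included, and 30 of the 60 genes shared under 1%. The most shared were Ndufb6, Ndufa13 (28.5%), Uqcrb (25.5%), and Cox7c (22.1%). Words were matched in both orientations, so that overlapping genes on the opposite strand also count as shared. Such genes overlapped 39% of the exon bases of Ndufb6, 30.0% of Ndufa13, 5.71% of Uqcrb, and 0% of Cox7c. Counts of these genes may thus depend on the strand setting or on how reads with several matches were treated. Neither is given in the sources used here.

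In resting WT cells, the gene with the highest mean level per length was Cox4i1 of complex IV. Length is that of all annotated exons of a gene, so that levels compared between genes also depend on the annotation. Cox4i1, the ubiquitous isoform of the nuclear subunit IV, stood at 315 ± 68.7 CPM per kb (SD, n = 3) in the CD5/CD6 experiment and at 413 ± 115 in the LAT experiment. Cox6a1, Cox8a, and Cox6b1 followed in the CD5/CD6 experiment at 244 ± 52.8, 222 ± 37.8, and 209 ± 50.4 CPM per kb. Neighbors in this order overlapped within their SD, Cox4i1 with Cox6a1 included, as did Uqcrh of complex III at 207 ± 51.8. In the LAT experiment Cox6a1 stood at 316 ± 91.9, overlapping Cox4i1, and Uqcrh at 286 ± 87.7, next to Cox6b1 at 284 ± 79.5. In the CD5/CD6 experiment the median gene was at 35.9 CPM per kb in complex I, 62.1 in complex II, 69.5 in complex III, and 81.5 in complex IV. The isoforms known from muscle, testis, or hypoxic tissue were at the bottom, with Cox6b2 at 0.821 ± 0.354 CPM per kb and Cox4i2, Cox6a2, Cox7a1, Cox7b2, Cox8b, and Cox8c under the minimum of reads. In complex III, Uqcrh, the hinge protein of cytochrome c1, made up 31.6% of the summed level per length of the 8 genes at 0 h and 15.6% at 20 h. Sdhd, a membrane anchor of complex II, went from 31.1% of the sum of its complex at 0 h to 53.1% at 20 h, while Sdha, the flavoprotein that oxidizes succinate, went from 38.5% to 20.7%.

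**Figure D1:**
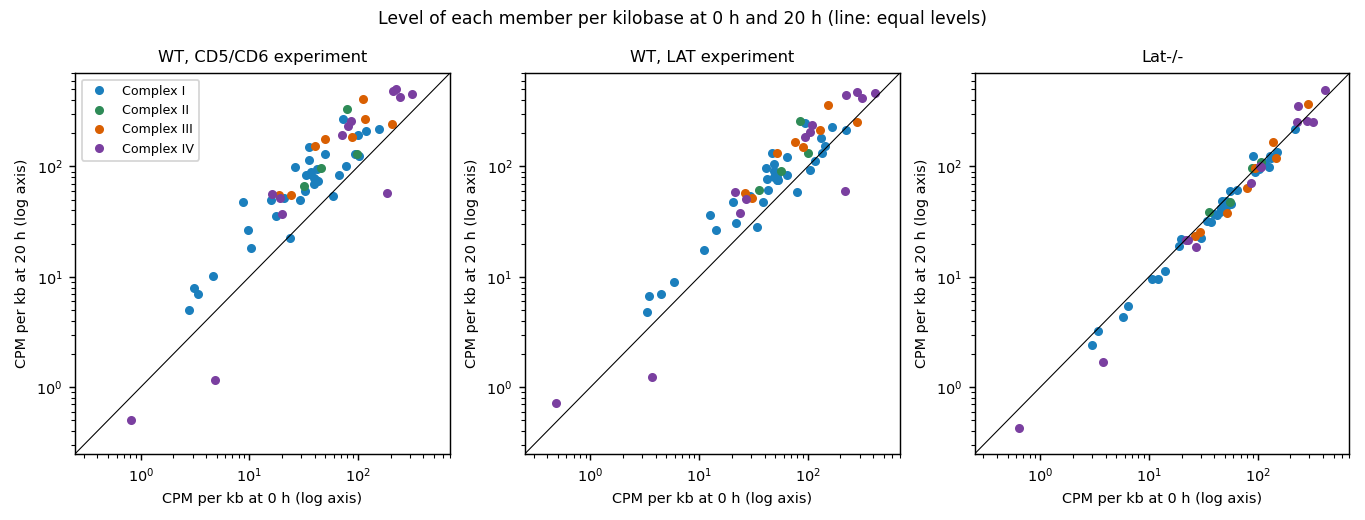
Level of the genes (all but 1 of the 60) per length (CPM per kb of exon, mean of 3 libraries, log axes) at 20 h (vertical) against 0 h (horizontal) in WT cells of both experiments and in Lat-/- cells, colored by complex, with a line of equal levels. In WT cells most points lie above the line, with Cox7a2l below it at 184 and 57.4 CPM per kb in the CD5/CD6 experiment, and in Lat-/- cells the points lie close to it.

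The first question was how the genes responded to TCR and CD28 stimulation in WT cells. At 20 h in the CD5/CD6 experiment, 50 of the 60 genes were higher than at 0 h and 2 were lower, while 16.9% of all genes tested were higher and 21.1% lower. Of the 12376 genes with a mean of at least 10 reads, a minimum that the members also had to pass, 36.9% were higher and 35.7% lower. Of the 50, 34 rose at least 2-fold, and the median change over the 60 genes was 1.09 on the log2 scale, against 0.00 over the 12376 genes. The summed level of the 60 genes was 5386, 4607, and 6472 CPM at 0 h and 9321, 9955, and 12663 CPM at 20 h, a ratio of means of 1.94. All 3 libraries at 20 h lay above all 3 at 0 h. Calls were made at an adjusted p under 0.05 (edgeR, quasi-likelihood F test, Benjamini-Hochberg over 32290 genes). Other protein-coding genes with exons of at most 1500 bases (591 genes) had a median of 0.59 in the same comparison and longer ones 0.05, while the 32 short and 28 longer members had medians of 1.18 and 1.07. The falling markers of other cells named above moved with this comparison, and their part in it was not tested. In the sorted WT cells of the LAT experiment, 45 of the 60 genes were higher at 20 h, against 32.9% of the 12376 genes. The rise was smaller there, with a median of 0.70 and 13 genes higher by at least 2-fold.

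In complex I, 29 of 35 genes were higher at 20 h and 0 were lower, 17 of them at least 2-fold. Ndufa12, an accessory subunit of the NADH-binding arm, stood at 12.9, 10.7, and 17.8 CPM at 0 h, 44.3, 34.6, and 39.7 at 4 h, and 66.8, 71.5, and 83.9 at 20 h. The 3 times did not overlap, and the change at 20 h was 2.42 ± 0.19 (log2, SE; edgeR adjusted p = 3.48e-19), the largest of the set. Ndufb6, of the membrane arm, went from 22.7, 18.2, and 28.5 CPM to 87.5, 82.1, and 128 (2.10 ± 0.21). Ndufa5, next to the quinone-reducing arm, went from 27.3, 22.3, and 32.0 CPM to 86.1, 99.7, and 120 (1.91 ± 0.20). All 7 core subunits, which carry the flavin and the iron-sulfur clusters, were higher, from 0.81 for Ndufs1 to 1.37 for Ndufs8 and 1.34 for Ndufv2. By module, 7 of 10 genes of the NADH-binding arm and 5 of 5 of the quinone-reducing arm were higher. The 6 genes not called were Ndufa6, Ndufv3, Ndufb11, Ndufa3, Ndufb10, and Ndufa2, with changes from -0.12 to 0.50.

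Complex II rose as a whole, with 4 of 4 genes higher, but unevenly. Sdhd was at 90.9, 84.6, and 115 CPM at 0 h, 86.8, 79.8, and 98.8 at 4 h, and 346, 385, and 493 at 20 h. Its libraries at 0 and 4 h overlapped and those at 20 h lay well above both, with a change of 2.07 ± 0.18 at 20 h (edgeR adjusted p = 2.46e-16). Sdhb, the iron-sulfur subunit, and Sdhc, the other membrane anchor, rose by 1.09 ± 0.17 and 1.08 ± 0.18, and Sdha rose by 0.41 ± 0.14. Sdha was at 394.5, 358, and 455 CPM at 0 h and at 551, 547, and 505.5 at 20 h.

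In complex III, 7 of 8 genes were higher at 20 h, each at least 2-fold. Uqcrq, a small subunit next to cytochrome b, went from 70.1, 60.5, and 88.6 CPM to 157, 133, and 167 at 4 h and 229, 257, and 353 at 20 h (1.94 ± 0.20). Uqcr10 and Uqcr11, both small membrane subunits, changed by 1.88 ± 0.19 and 1.81 ± 0.21. The Rieske iron-sulfur protein Uqcrfs1 and the core proteins Uqcrc1 and Uqcrc2 rose by 1.23, 1.18, and 1.05. The exception was Uqcrh, at 271, 185.5, and 311 CPM at 0 h and 254, 266, and 374 at 20 h, with overlapping groups and a change of 0.22 ± 0.20.

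In complex IV, 10 of 13 genes were higher and 2 were lower. Cox5a, which binds on the matrix side, went from 34.1, 27.9, and 39.6 CPM to 115, 110, and 130 (1.80 ± 0.19; edgeR adjusted p = 1.11e-13), and Cox5b, its zinc-binding partner, rose by 1.42 ± 0.18. Cox7a2, the ubiquitous isoform of subunit VIIa, rose by 1.57 ± 0.19, Cox7b by 1.45 ± 0.18, and Cox6b1 by 1.20 ± 0.19. Cox4i1, the gene with the highest resting level per length, rose less, by 0.54 ± 0.21 (edgeR adjusted p = 0.0304). The lower genes were Cox7a2l and Cox7c. Of 14 genes listed for complex IV isoforms, ubiquitous ones such as Cox7a2 included, 11 were tested, and 6 were higher and 2 lower.

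**Figure D2:**
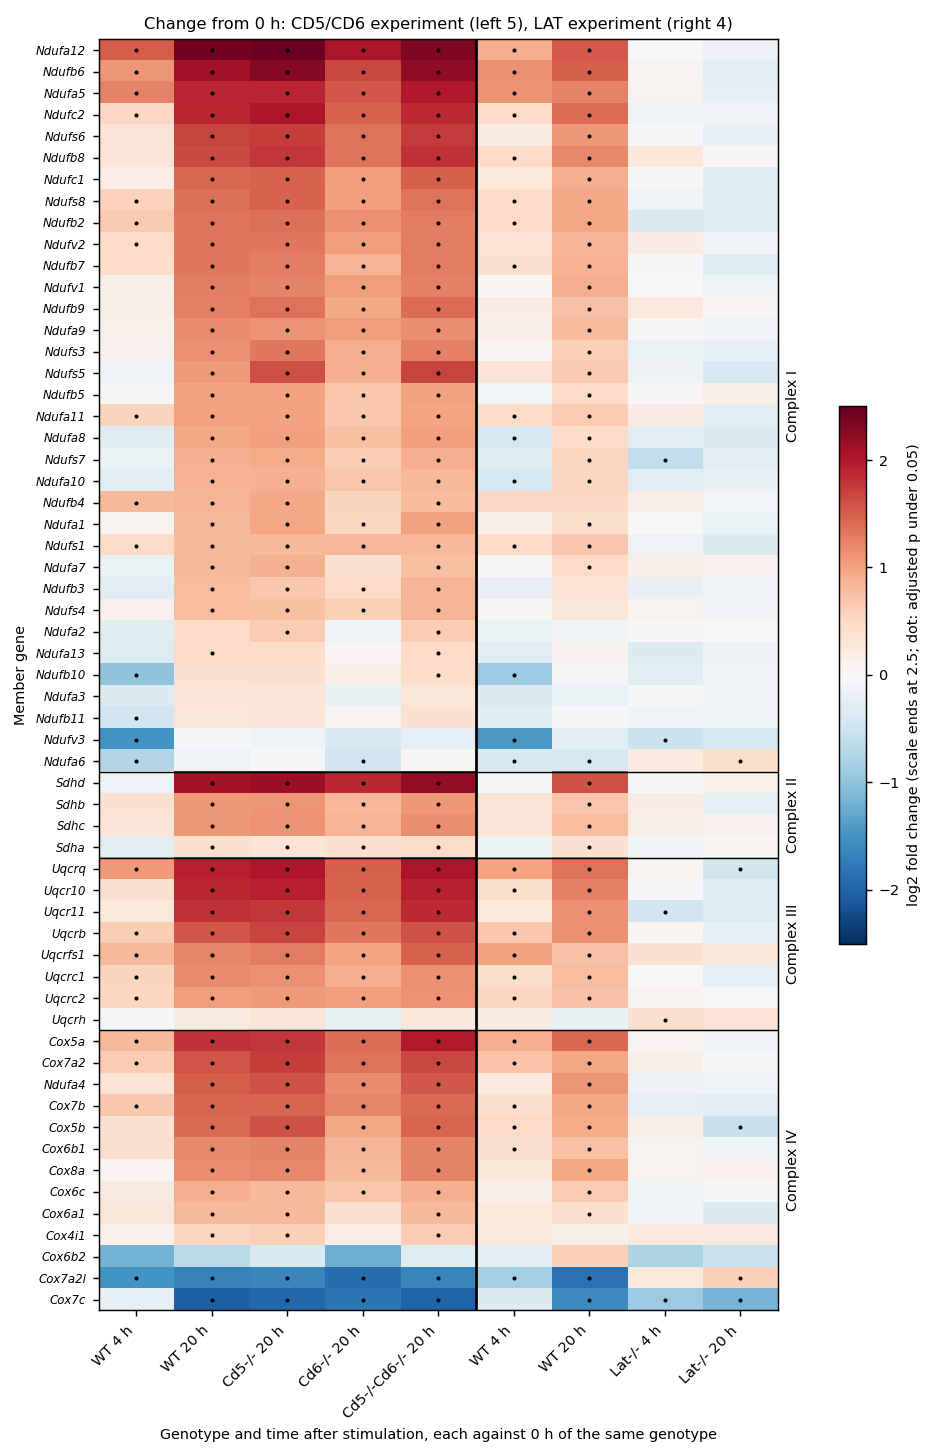
Heat map of log2 fold changes against 0 h of the same genotype for the genes (rows, by complex, all but 1 of the 60), with 5 columns for the CD5/CD6 experiment and 4 for the LAT experiment, and a dot where the edgeR adjusted p was under 0.05. The 20 h columns of WT, Cd5-/-, Cd6-/-, and Cd5-/-Cd6-/- cells are mostly red (medians over the 60 genes 1.09, 1.12, 0.85, and 1.15), and the Lat-/- columns are pale (median -0.13 at 20 h).

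At 4 h the response of WT cells was divided. Of the 60 genes, 18 were higher and 5 lower, against 13.3% and 15.2% of all genes tested, with a median of 0.20. Among the 12376 genes with enough reads, 30.8% were higher and 31.3% lower, so that the 30% of members that were higher was near the background and the 8.33% that were lower was below it. Between 4 and 20 h, 51 genes were higher and 1 lower, against 13.8% and 16.7% of all genes and 31.0% and 30.6% of the 12376, with a median of 0.87. The genes higher at 4 h included Ndufa12 (1.51 ± 0.18), Ndufa5 (1.24 ± 0.20), Ndufb6 (1.10 ± 0.20), and Uqcrq (1.06 ± 0.19), the same 4 that passed 2-fold. By complex, 5 of 8 genes of complex III and 10 of 35 of complex I were higher at 4 h, and 0 of 4 of complex II were called in either direction. This count depended on the scaling: with library totals in place of TMM factors, 7 genes were higher and 14 lower, the median over the 12376 genes moved from -0.04 to -0.29, and the higher share of all calls moved from 46.7% to 35.4%. With the replicate number as a block, since the same-numbered libraries deviated together in this comparison, 8 genes were lower in place of 5.

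The lower genes at 4 h were Ndufv3 (-1.50 ± 0.16; edgeR adjusted p = 1.55e-12), Cox7a2l (-1.50 ± 0.20), Ndufb10 (-1.01 ± 0.18), Ndufa6 (-0.74 ± 0.19), and Ndufb11 (-0.48 ± 0.19). Ndufv3, a small phosphoprotein of the NADH-binding arm, stood at 75.3, 66.0, and 83.1 CPM at 0 h, 26.7, 25.2, and 27.3 at 4 h, and 75.0, 58.0, and 83.7 at 20 h. Its levels at 0 and 20 h overlapped and all 3 libraries at 4 h lay below them. Ndufb10, a membrane-arm subunit, had the same course, from 89.4, 81.6, and 111 CPM to 44.9, 40.7, and 54.7 and on to 109, 115, and 145. Ndufa6 went from 105, 91.1, and 122 CPM to 56.9, 59.1, and 75.0, and its groups at 0 and 20 h overlapped.

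Cox7a2l, also called SCAF1, fell early and did not return. It stood at 271, 221, and 325 CPM at 0 h, 79.7, 85.9, and 123 at 4 h, and 75.2, 79.6, and 99.8 at 20 h, a change of -1.68 ± 0.20 at 20 h (edgeR adjusted p = 1.72e-11). Its close relative Cox7a2 moved in the opposite direction, from 79.3, 67.2, and 97.9 CPM to 203, 224, and 298, and per length the pair changed places, from 184 ± 35.3 (Cox7a2l) and 86.3 ± 16.4 (Cox7a2) CPM per kb (SD, n = 3) at 0 h to 57.4 ± 8.85 and 256 ± 52.8 at 20 h. Cox7c was at 5.49, 7.59, and 3.25 CPM at 0 h and 1.83, 0.7003, and 1.37 at 20 h (-2.04 ± 0.38), with few reads in every library and with 22.1% of its 50-base words shared with other genes. Cox6b2, the testis isoform, was at 1.30 CPM or less in every WT library of this experiment and was not called.

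**Figure D3:**
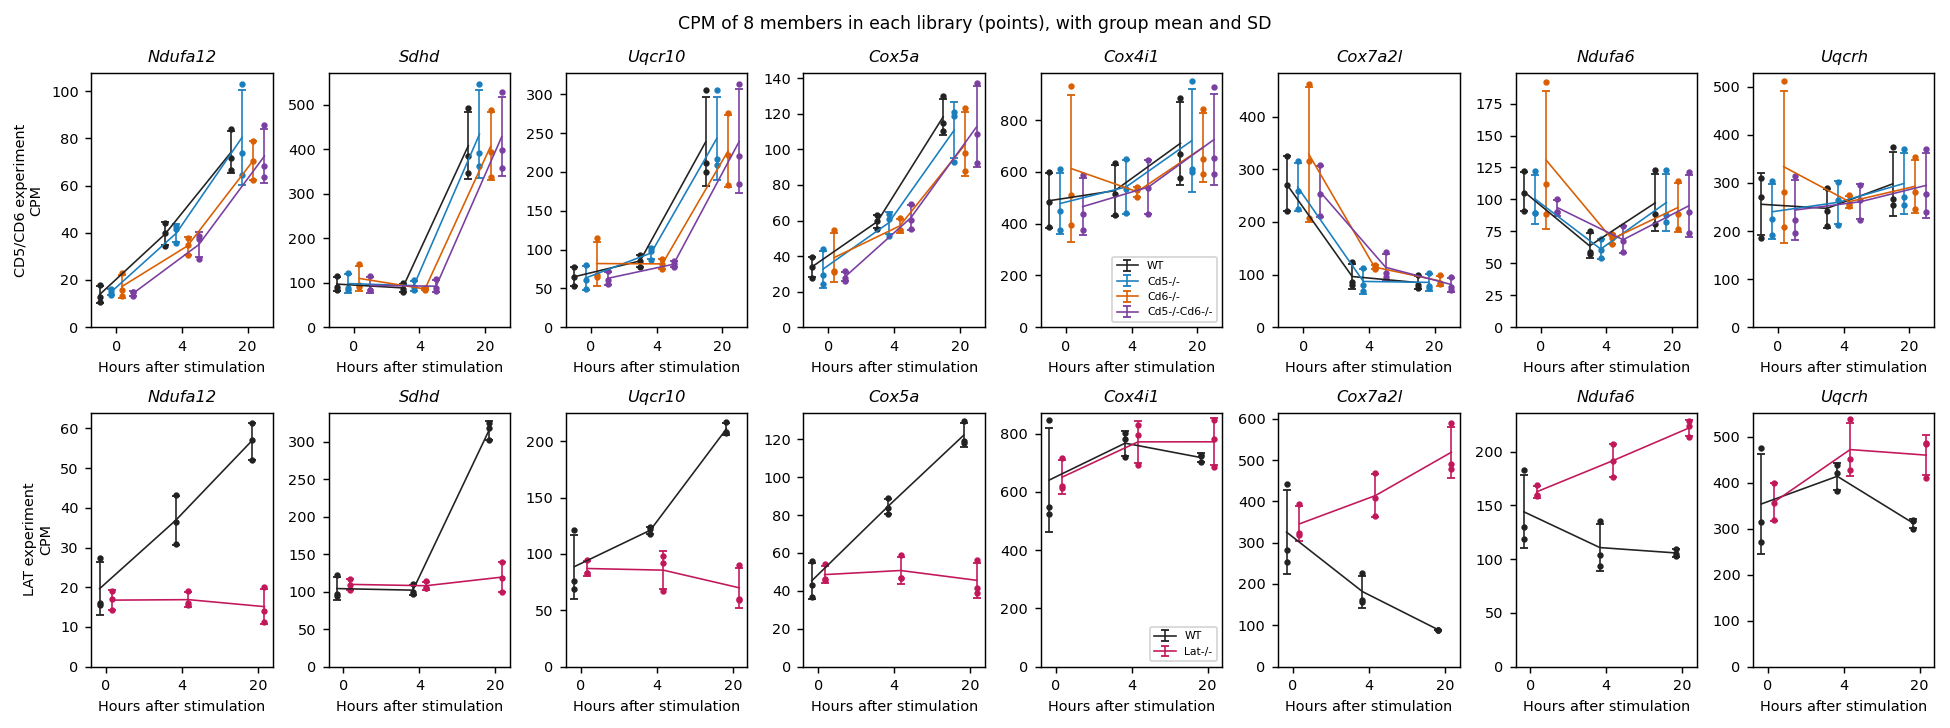
CPM (vertical axes) of 8 of the genes in each library (points), with group means joined by lines and bars of 1 SD (n = 3), against hours of stimulation (evenly spaced times), for the CD5/CD6 experiment above and the LAT experiment below. Sdhd rose between 4 and 20 h in WT cells, and Cox7a2l fell in WT cells to 88.5 to 89.4 CPM at 20 h in the LAT experiment while Lat-/- cells were at 478 to 590.

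The CD5/CD6 experiment next asks whether these responses differ without CD5, CD6, or both. At 20 h, 50 genes were higher and 2 lower in Cd5-/- cells (16.8% and 21.3% of all genes), 45 and 3 in Cd6-/- cells (16% and 20.8%), and 52 and 2 in Cd5-/-Cd6-/- cells (16.7% and 21.6%). Of the 12376 genes with enough reads, 35.4% to 37.2% were higher in these 3 genotypes. Across all 4 genotypes, the same 45 genes were higher, and Cox7a2l and Cox7c were lower in each. Ndufa12 changed by 2.42 (WT), 2.44 (Cd5-/-), 2.04 (Cd6-/-), and 2.34 (Cd5-/-Cd6-/-), Sdhd by 2.07, 2.15, 1.89, and 2.19, and Cox7a2l by -1.68, -1.64, -1.90, and -1.67. At 4 h, 24 genes were higher and 4 lower in Cd5-/- cells (13.2% and 15.2% of all genes), 9 and 14 in Cd6-/- cells (12.5% and 14.7%), and 18 and 3 in Cd5-/-Cd6-/- cells (12.6% and 13.7%). In the same order, the shares of members higher at 4 h were 40%, 15%, and 30%, against 30.3%, 28.7%, and 29.5% of the 12376 genes, and the shares lower were 6.67%, 23.3%, and 5%, against 31.9%, 31.1%, and 28.8%. With library totals the Cd5-/-Cd6-/- counts at 4 h were 8 and 9, and the higher share of all calls moved from 47.9% to 35.6%. Ndufa12, Ndufa5, Ndufb6, Ndufs1, Uqcrc2, Uqcrfs1, Uqcrq, Cox5a, and Cox7a2 were higher at 4 h in all 4 genotypes, and Ndufb10, Ndufv3, and Cox7a2l were lower in all 4.

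Without the 2 libraries that went against their labels, 47 genes were higher and 2 lower at 20 h in Cd5-/- cells and 40 and 6 in Cd6-/- cells, and at 4 h the counts were 15 and 5 in Cd5-/- cells and 3 and 17 in Cd6-/- cells. The genes given above as shared by every genotype come from fits that include these libraries. Without them, at most 40 genes at 20 h and 3 at 4 h could be higher in every genotype. A further unstimulated library stood apart, the library labelled Cd6-/- replicate 3, with a summed level of 8795 CPM against 5599 and 4962 in the other 2. In it the members lay a median of 0.79 above their group on the log2 scale, the 591 other short genes 0.60, and longer genes -0.05. Without it, 16 genes were higher and 4 lower at 4 h in Cd6-/- cells, and 51 and 2 at 20 h. In the block fit, for pairs whose same-numbered libraries deviated together, 8 genes were lower at 4 h in Cd5-/- cells, and 28 were higher and 6 lower in Cd5-/-Cd6-/- cells. Leaving out that single library thus moved the Cd6-/- counts at 4 h by more than 1.5 times.

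Direct comparisons of each mutant with WT cells gave 0 genes of the 60 in either direction at each time, in edgeR and in DESeq2. The share of all genes called in either direction was 0.0619%, 0.0867%, and 0.0217% for Cd5-/- cells at 0, 4, and 20 h, 0%, 0.0031%, and 0.0186% for Cd6-/- cells, and 0.0279%, 0.0434%, and 0.0465% for Cd5-/-Cd6-/- cells. At an unadjusted p under 0.05, 2 members were called in Cd6-/- cells at 0 h and 0 in the other 8 comparisons. The median SE of a member was 0.19 on the log2 scale. Counts and SE here come from fits without the replicate number, although same-numbered libraries deviated together in most of these comparisons. At 0 h, replicate 3 lay above its group in WT, Cd5-/-, Cd6-/-, and Cd5-/-Cd6-/- cells, by member medians of 0.40, 0.45, 0.79, and 0.29. In Cd5-/- cells the members differed from WT by -0.15 to 0.20 at 4 h, with a median of 0.07, and in Cd5-/-Cd6-/- cells at 20 h by -0.26 to 0.09, with a median of -0.03. In Cd6-/- cells at 0 h the median was 0.24, where the 591 other short genes had 0.20, and it was -0.06 without the library that stood apart and 0.37 without both libraries that went against their labels. Without both, 0 members were again called at 0 h for Cd5-/- cells, where the median moved from 0.00 to 0.10 and the calls over all genes from 2 higher and 18 lower to 16 and 197. For Cd6-/- cells at 0 h, the calls are given here only with both libraries included.

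The responses themselves were compared as mutant minus WT, with a median SE of 0.26. Again 0 of the 60 genes were called for any mutant at 4 or 20 h, by edgeR or DESeq2, against 0.0031% of all genes at each time for Cd5-/- cells, 0% and 0.0031% for Cd6-/- cells, and 0% and 0% for Cd5-/-Cd6-/- cells. At an unadjusted p under 0.05 there was 1 gene at each time for Cd6-/- cells and 0 in the other 4 comparisons. The medians for Cd6-/- cells were -0.30 at both times, and without the unstimulated library that stood apart they were -0.03 and 0.00. Those for Cd5-/- cells were 0.07 and 0.03, and those for Cd5-/-Cd6-/- cells 0.06 and 0.04. Without both libraries that went against their labels, the medians were -0.40 and -0.43 for Cd6-/- cells and 0.0018 and -0.062 for Cd5-/- cells, whose sign thus turned at 20 h, and again 0 members were called.

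**Figure D4:**
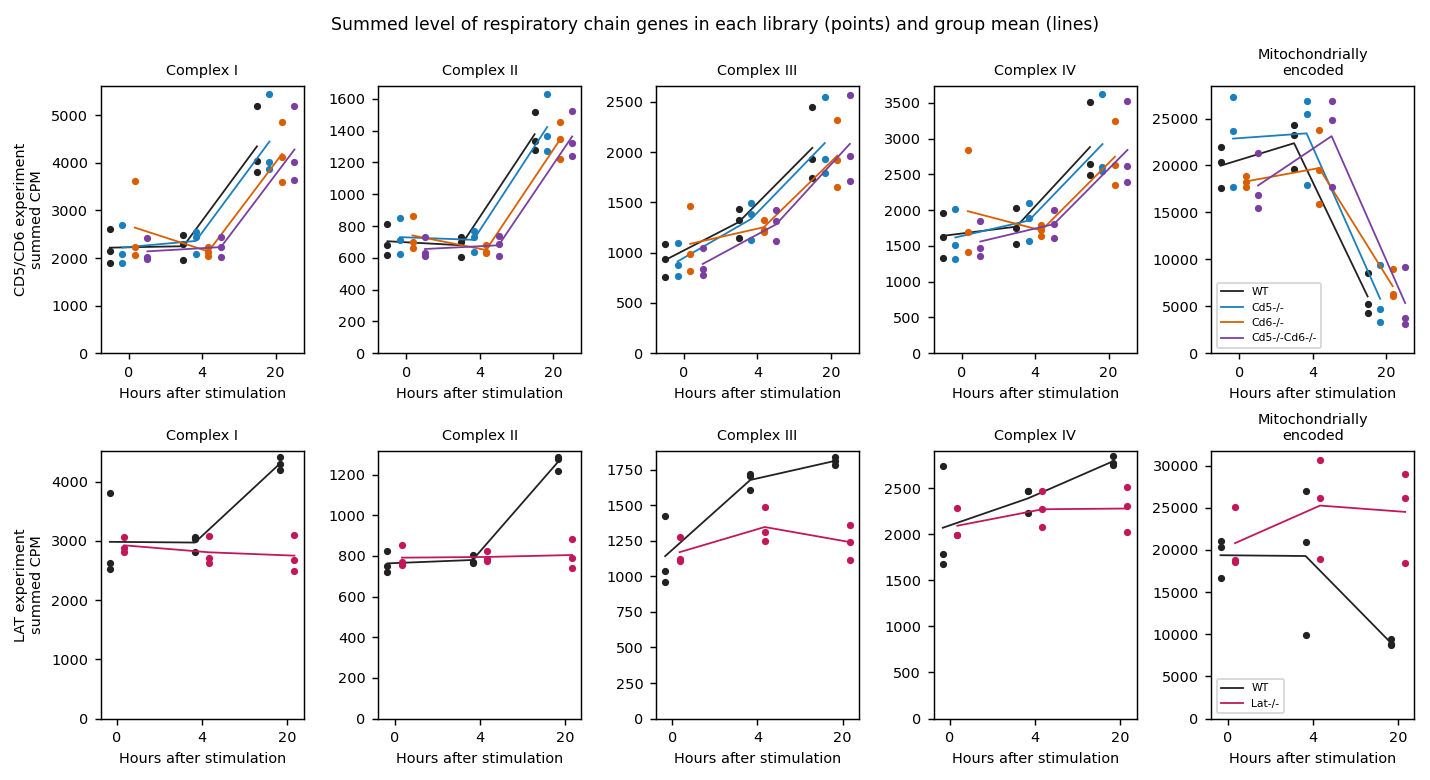
Summed CPM (vertical axes) of the nuclear genes of each complex and of the mitochondrially encoded subunits in each library (points), with group means joined by lines, against hours of stimulation (evenly spaced times), for both experiments. Sums of the nuclear genes are highest at 20 h in the genotypes of the CD5/CD6 experiment and in WT cells of the LAT experiment, where the mitochondrially encoded sum is lowest (8715 to 9422 CPM in WT cells of the LAT experiment, 18397 to 29021 in Lat-/- cells).

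The LAT experiment asks the same of sorted cells and of cells without LAT. In WT cells at 20 h, 45 genes were higher and 3 lower, against 16.5% and 18.2% of all 27780 genes tested and 32.9% and 35.1% of the 12376, with a median of 0.70, and 13 rose at least 2-fold. All 45 were among the 50 that were higher in the CD5/CD6 experiment, and Cox7a2l and Cox7c were lower in both. The summed level was 5882, 8802, and 6202 CPM at 0 h and 9956, 10186, and 10382 at 20 h. The library labelled WT replicate 2 at 0 h stood apart, with its members a median of 0.61 above their group, the other short genes 0.47, and longer genes -0.10. Without it, 50 genes were higher at 20 h and 2 lower.

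Sdhd, Ndufa12, and Ndufb6, which were also among the 4 largest rises of the first experiment, and Cox5a led. Sdhd stood at 94.3, 122, and 96.2 CPM at 0 h, 99.0, 97.0, and 110 at 4 h, and 302, 318, and 325 at 20 h (1.598 ± 0.15 at 20 h; edgeR adjusted p = 2.15e-24). Ndufa12 changed by 1.53 ± 0.18, Ndufb6 by 1.49 ± 0.16, and Cox5a by 1.43 ± 0.16. All 7 core subunits of complex I and 4 of 4 genes of complex II were higher, as were 7 of 8 of complex III and 9 of 13 of complex IV. Cox7a2l fell by 1.87 ± 0.15 on the log2 scale, Cox7c by 1.58 ± 0.34, and Ndufa6 by 0.45 ± 0.15.

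At 4 h in WT cells, 21 genes were higher and 6 lower, against 14.2% and 14.8% of all genes. The shares were 35% and 10% of the members, against 29.3% and 30.6% of the 12376 genes. Without the library that stood apart, 37 were higher and 3 lower, and with library totals 8 were higher and 14 lower, with the higher share of all calls moving from 49.0% to 36.4% and the median over the 12376 genes from -0.03 to -0.26. Between 4 and 20 h, 36 were higher and 3 lower, against 13.4% and 16.1% (27.3% and 32.4% of the 12376), and library totals moved the higher share of all calls from 45.3% to 57.3%. Of the genes higher at 4 h, 16 were shared by the experiments, 88.9% of those of the CD5/CD6 experiment and 76.2% of those of the LAT experiment. Ndufb6 (1.14 ± 0.16), Ndufa5 (1.11 ± 0.16), Uqcrfs1 (1.00 ± 0.15), and Uqcrq (0.98 ± 0.15) led. Ndufv3 fell from 90.5, 144, and 92.1 CPM to 39.3, 34.3, and 46.4 (-1.44 ± 0.16), and Ndufb10 from 116, 187, and 120 to 74.6, 67.7, and 82.5 (-0.91 ± 0.15). Both dips were thus found in each experiment, and at 20 h Ndufv3 was again at 91.4, 89.2, and 88.4 CPM. Cox7a2l fell by 0.84 ± 0.15 and Ndufa10 by 0.43 ± 0.15 at 4 h.

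Lat-/- cells showed almost none of this. At 20 h, 2 genes were higher and 3 lower than at 0 h, against 5.35% and 5.34% of all genes, with a median of -0.13, and at 4 h 1 was higher and 4 lower, against 7.38% and 8.05%, with a median of 0.00. Among the 12376 genes these shares were 11.5% and 11.1% at 20 h and 15.5% and 17.0% at 4 h. The library labelled Lat-/- replicate 3 at 20 h stood apart, with 57 of the 60 members above their group, by a median of 0.32, and the other short genes by 0.28. The median change at 20 h was -0.25 without replicate 3, with 1 gene higher and 10 lower, and -0.065 without replicate 1, with 0 called. The summed level was 6761, 7493, and 6690 CPM at 0 h, 7065, 7860, and 6742 at 4 h, and 6368, 7013, and 7851 at 20 h, and the 3 times overlapped. Cox7a2l and Ndufa6 were the genes that rose at 20 h, by 0.59 ± 0.15 and 0.45 ± 0.15, the opposite of their direction in WT cells, and Cox7c, Cox5b, and Uqcrq fell by 1.16 ± 0.33, 0.55 ± 0.16, and 0.46 ± 0.15 on the log2 scale. At 4 h, Uqcrh rose by 0.40 ± 0.15 (edgeR adjusted p = 0.0449), and Cox7c, Ndufs7, Ndufv3, and Uqcr11 fell by 0.91, 0.62, 0.55, and 0.47 on the log2 scale.

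Before stimulation the genotypes could not be separated: 0 of 60 genes were called at 0 h in edgeR or DESeq2, 0 at an unadjusted p under 0.05, against 1.59% of all genes in either direction. Members differed by -0.23 to 0.39, with a median of 0.00 and a median SE of 0.15, and without the WT library that stood apart the median was 0.21. At 4 h, 20 genes were lower in Lat-/- than in WT cells and 4 higher, against 12% and 11.9% of all genes, with a median of -0.27. Of the members 33.3% were lower and 6.67% higher, against 25.4% and 25.5% of the 12376 genes. At 20 h, 44 were lower and 3 higher, against 17.6% in each direction (34.8% and 34.9% of the 12376), with a median of -0.81, and 23 of the 44 were lower by at least 2-fold. By complex, 26 of 35 genes of complex I, 3 of 4 of complex II, 6 of 8 of complex III, and 9 of 13 of complex IV were lower at 20 h. The other short genes had a median of -0.43 in this comparison and longer ones -0.04, while the short and longer members had -0.84 and -0.77. At 20 h, 6 of 8 CD4+ T cell markers were higher in Lat-/- cells and 0 lower, 2 of 8 B cell markers were higher and 1 lower, and 1 of 7 myeloid markers was called in each direction. Their part in the result was not tested.

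Ndufa12 was at 57.04, 52.1, and 61.4 CPM in WT and 11.3, 14.0, and 20.0 in Lat-/- cells at 20 h (-1.91 ± 0.18; edgeR adjusted p = 2.40e-25). Uqcrq was at 230, 234, and 271 CPM against 54.5, 61.1, and 94.4 (-1.80 ± 0.15), Ndufa5 at 106.5, 95.2, and 98.8 against 29.9, 29.8, and 37.2 (-1.63 ± 0.16), and Uqcr10 at 207, 208, and 217 against 59.4, 60.3, and 90.2 (-1.59 ± 0.15). The genotypes did not overlap for any of these 4. Among subunits with catalytic parts, Ndufs8 (-1.43), Ndufv1 (-1.11), Ndufv2 (-1.05), and Sdhb (-0.93) were lower, and Sdha (-0.26) and Uqcrfs1 (-0.35) were not called. The core protein Uqcrc1 of complex III was lower as well (-1.02). Sdhd was at 302, 318, and 325 CPM against 99.8, 118, and 140 (-1.40 ± 0.15). Cox4i1 was at 728, 723, and 701 CPM against 686, 782, and 847, with overlapping groups.

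The higher genes at 20 h were Cox7a2l, Ndufa6, and Uqcrh. Cox7a2l was at 88.5, 89.4, and 88.6 CPM in WT and 478, 590, and 490 CPM in Lat-/- cells, a difference of 2.55 ± 0.16 (edgeR adjusted p = 6.48e-58) and the largest of the 60 in size. At 0 h it had stood at 253, 441, and 283 against 319, 395, and 323, so that the gap came from a fall in WT and a rise in Lat-/- cells. Ndufa6 was at 103, 105, and 110 CPM against 214, 229, and 224 (1.07 ± 0.15), and Uqcrh at 318, 318, and 300.5 against 411, 486, and 485 (0.56 ± 0.15). At 4 h Cox7a2l (1.19 ± 0.15) and Ndufa6 (0.79 ± 0.15) were already higher, as were Ndufv3 (0.73 ± 0.15) and Ndufb10 (0.63 ± 0.15), the genes that dipped in WT cells. Ndufa5 (-1.17), Ndufa12 (-1.13), Ndufb2 (-1.05), and Uqcrq (-0.92) were the most reduced at 4 h.

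**Figure D5:**
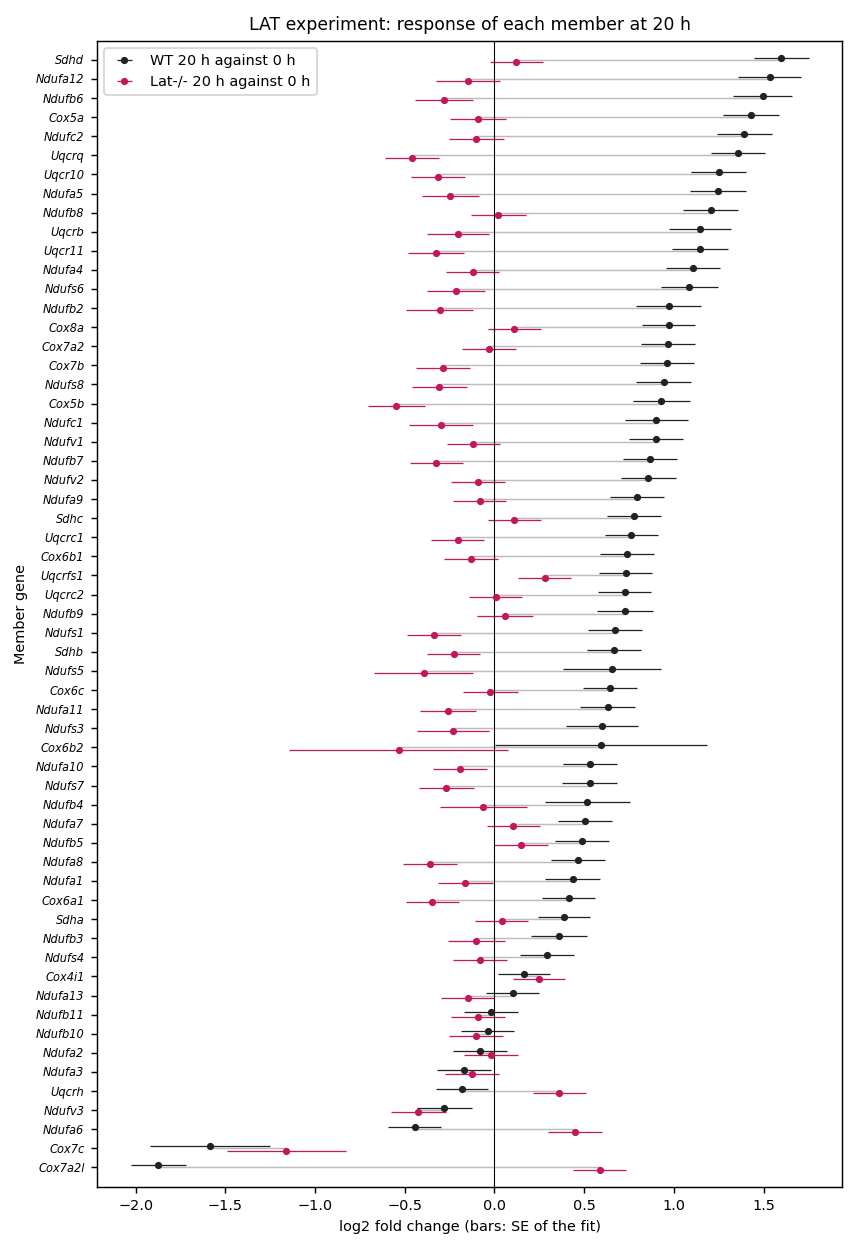
Log2 change from 0 to 20 h (horizontal axis, bars 1 SE of the fit) of the genes (vertical axis, all but 1 of the 60) in WT and Lat-/- cells of the LAT experiment, with the pair of points of a gene joined by a line. WT points lie mostly to the right of 0 (45 called higher over the 60 genes) and Lat-/- points near 0 (2 called higher), and Cox7a2l lies on opposite sides, at -1.87 in WT and 0.59 in Lat-/- cells.

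The difference between the responses was tested as well. At 20 h, 40 genes rose less or fell more in Lat-/- cells and 3 the reverse, against 12.8% and 13.5% of all genes (27.2% and 27.7% of the 12376), with a median difference of -0.86. At 4 h these counts were 11 and 4, against 7.58% and 7.42%, with a median of -0.25. The 18.3% of members in the first class at 4 h was near the 16.7% of the 12376 genes, and the 6.67% in the second was below their 16.2%. Without the WT library that stood apart they were 47 and 2 at 20 h and 23 and 2 at 4 h, and with library totals 5 genes were in the first class at 4 h, the share of all calls in the second class moving from 49.5% to 62.4%. Lat-/- and WT responses differed by -1.81 ± 0.21 for Uqcrq, -1.77 ± 0.23 for Ndufb6, and 2.46 ± 0.21 for Cox7a2l at 20 h (edgeR adjusted p = 4.72e-16, 1.30e-13, and 2.35e-29).

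Other genes of the same pathways are given by the lists described under the processing, and their counts stand beside the 36.9% of the 12376 genes that were higher at 20 h in the CD5/CD6 experiment and 32.9% in the LAT experiment. Counts lower in Lat-/- than in WT cells at 20 h stand beside 34.8% of the 12376 genes. Cyc1, the cytochrome c1 of complex III, changed by 0.78 at 4 h and 1.93 at 20 h among WT libraries of the CD5/CD6 experiment and was lower by 1.66 in Lat-/- than in WT cells at 20 h. Of 16 nuclear genes for ATP synthase, 14 were higher and 1 lower at 20 h in the CD5/CD6 experiment and 13 and 1 in the LAT experiment, and 13 were lower in Lat-/- cells. The lower gene was Atp5l (-3.86), which was at 2.98 to 8.25 CPM at 0 h. Of 14 complex I assembly factors, 12 were higher at 20 h in each experiment and 0 lower, led by Ndufaf2 (2.63) and Ndufaf6 (2.57) in the CD5/CD6 experiment, and 12 were lower in Lat-/- than in WT cells. Ndufaf4 rose at 4 h already, by 2.25. Of 6 complex III assembly factors, 3 were higher and 1 lower at 20 h, with Uqcc2 at 2.10, and of 18 complex IV assembly factors tested, 12 were higher and 0 lower, with Coa7 at 1.87. Of 4 complex II assembly factors, 3 were higher, with Sdhaf3 at 1.34. Of 14 genes for electron carriers, mostly enzymes that make ubiquinone, 12 were higher and 1 lower, with Coq4, Coq3, and Coq7 at 3.42, 2.80, and 2.75. Of 15 genes for TCA cycle enzymes and pyruvate dehydrogenase, 14 were higher and 0 lower, led by the fumarase gene Fh1 (2.31) and Idh3a (2.01), and 13 of the 15 were lower in Lat-/- than in WT cells at 20 h.

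The subunits encoded in mitochondrial DNA went the other way. Of 13 such genes, 6 had a mean under 1 read and 7 were measured, and all 7 were lower at 20 h among WT libraries of the CD5/CD6 experiment, with mt-Cytb at -2.22, mt-Nd4 at -2.16, and mt-Nd5 at -2.06. Their summed level was 22005, 17572, and 20348 CPM at 0 h, 23195, 19611, and 24306 at 4 h, and 8597, 4315, and 5234 at 20 h. The libraries at 0 and 4 h overlapped and those at 20 h lay below them, while the sum of the nuclear genes rose. In the LAT experiment 6 of the 7 were lower at 20 h in WT cells and 6 were higher in Lat-/- than in WT cells, with mt-Nd5 at 1.97. Their sum in Lat-/- cells was 18529, 25081, and 18820 CPM at 0 h and 26139, 29021, and 18397 at 20 h. The libraries were made from polyadenylated RNA.

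Of 19 regulators of mitochondrial biogenesis, 9 were higher and 2 lower at 20 h in the CD5/CD6 experiment and 9 and 3 in the LAT experiment, where 36.9% and 32.9% of the 12376 genes were higher. Myc, a factor known for driving growth genes, rose by 3.21 at 4 h and 2.20 at 20 h in the CD5/CD6 experiment and by 2.95 and 2.11 in the LAT experiment, and was lower by 2.83 in Lat-/- than in WT cells at 20 h. Pprc1, a coactivator of the PGC-1 family, rose by 1.68 at 4 h and 0.84 at 20 h, and Gabpa, the DNA-binding subunit of GABP, by 0.85 and 0.39. Tfam, which packs and transcribes mitochondrial DNA, changed by 0.22 at 4 h, which was not called, and rose by 0.82 at 20 h. Nrf1 was lower by 0.38 at 20 h, Yy1 was not called (-0.38, edgeR adjusted p = 0.0543), Ppargc1b was lower by 1.27 at 4 h, and Ppargc1a was at 0.106 CPM or less in each WT library. In Lat-/- cells Myc, Pprc1, and Gabpa were not called at 20 h, with changes of -0.33, -0.37, and 0.10, and Nrf1 was higher by 0.54 and Yy1 by 0.69 than in WT cells at that time.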

How the data were processed

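Gene counts were deposited by the authors as 2 tables of 55385 genes, 1 per experiment (36 and 18 libraries). The authors sequenced stranded poly(A) mRNA libraries as single 50-base reads, trimmed adapters and poor reads with DimerRemover, used STAR for alignment (GRCm38), and obtained gene counts from featureCounts. The submitters' notes also name bcl2fastq 2.17.1.14 and DESeq2. The annotation release, the strand setting, and the treatment of reads with several matches are not given in the sources used here. The deposited counts were used as they were, and no other per-library values were used.

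Each experiment was fitted alone with edgeR 4.0.16 (R 4.3.3), using TMM factors, all groups in 1 quasi-likelihood fit, and Benjamini-Hochberg adjustment over all genes with at least 1 read (32290 and 27780), calling genes at an adjusted p of 0.05. Groups were taken from the sample labels. The labels do not say that libraries of a group came from separate mice, so that p-values measure only the spread between these libraries. Fold changes of at least 2 were counted apart. Levels between genes were compared as CPM per kb of exon. The fits were also tested on simulated data, and the outcome of that test is not reported here. A total of 55144 gene identifiers had a symbol.

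The genes and lists were chosen with earlier results of these data known. Named were the core subunits, complex II, the core and iron-sulfur proteins of complex III, Cox5a, Cox5b, the complex IV isoforms, up to 4 genes per direction with the largest change in each main comparison, and up to 3 per list of other genes. The remaining names were chosen after their values were seen. Values of 1 gene are not reported here by name, and it is left out of the plots of single genes.

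Alternatives were DESeq2 1.42.0, RLE factors, library totals, the filterByExpr filter, the compared groups alone, the replicate number as a block, each replicate left out, and the 2 libraries that went against their labels left out. Leaving out the Cd6-/- library (replicate 3) and the WT library of the LAT experiment (replicate 2) that stood apart at 0 h was added after seeing the data. Shared replicate numbers were checked by the correlation of deviations from group means. Every pair was over 0.1 for the 4 h response of WT (lowest r = 0.208), Cd5-/- (0.235), and Cd5-/-Cd6-/- cells (0.25) and the 20 h response of Cd5-/- cells (0.103) in the CD5/CD6 experiment, for most comparisons of a mutant with WT cells there, and for Lat-/- against WT cells at 0 h (0.216). These correlations are across genes, which are not independent.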

Additional observations from a re-analysis of the deposited data

Results flagged for a closer look

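The responses of Lat-/- and WT cells differed by the test of the difference itself (edgeR adjusted p under 0.05) in the following cases. At 4 h, the change was more positive in Lat-/- cells for 4 genes, with differences on the log2 scale of 1.10 for Cox7a2l, 0.90 for Ndufv3, 0.62 for Ndufb10, and 0.61 for Ndufa6. It was more negative for 11 genes, the largest being -1.06 for Ndufb6, -1.03 for Ndufa5, -0.93 for Uqcrq, and -0.90 for Ndufa12. Leaving out the WT library of replicate 2 at 0 h moved these counts to 2 and 23.

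At 20 h, the change was more positive in Lat-/- cells for 3 genes, with differences of 2.46 for Cox7a2l, 0.89 for Ndufa6, and 0.54 for Uqcrh. It was more negative for 40 genes, the largest being -1.81 for Uqcrq, -1.77 for Ndufb6, -1.68 for Ndufa12, and -1.57 for Uqcr10.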

How the results depend on the processing

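The main counts and medians over the 60 genes were compared under each alternative. Of these values, 697 kept their direction and their side of the threshold, or stayed within 1.5 times the reported count. Another 42 were weaker and 29 were stronger. Among the remaining values compared, 4073 were the same, 170 weaker, 123 stronger, 51 moved, and 3 reversed. The cause of each change below was not tested. The 20 h counts of genes higher in WT, Cd5-/-, Cd6-/-, and Cd5-/-Cd6-/- cells and lower in Lat-/- than in WT cells were among those that stayed within 1.5 times, while the 4 h counts were not.

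With library totals, the genes higher and lower at 4 h numbered 7 and 14 in WT (median -0.038), 10 and 8 in Cd5-/-, 8 and 9 in Cd5-/-Cd6-/-, and 8 and 14 in LAT-experiment WT cells, and in Cd6-/- cells 2 were higher. In Lat-/- cells 0 were higher at 4 h and 1 at 20 h, and the 4 h response was more negative than in WT cells for 5. With the replicate block, 8 genes were lower at 4 h in WT and in Cd5-/- cells, 28 were higher and 6 lower in Cd5-/-Cd6-/- cells, and 2 were higher at 4 h in Lat-/- cells. Genes lower at 20 h in Cd6-/- cells numbered 5 with RLE factors, library totals, the replicate block, or DESeq2, and 6 without both libraries that went against their labels. Without these, 15 genes were higher at 4 h in Cd5-/- and 3 in Cd6-/- cells. In Lat-/- cells at 4 h, 2 were higher with RLE factors or the compared groups alone, and 2 were lower with filterByExpr or DESeq2. With the compared groups alone, 10 were higher at 4 h in LAT-experiment WT cells and 5 lower at 20 h in Lat-/- cells.

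Leaving out 1 replicate or library at a time, genes higher at 4 h ranged from 10 to 28 in WT, 9 to 32 in Cd5-/-, 2 to 25 in Cd6-/- (4 to 13 lower), and 9 to 27 in Cd5-/-Cd6-/- cells. In LAT-experiment WT cells they ranged from 5 to 37 (3 to 10 lower), and 1 to 3 were lower between 4 and 20 h. In Lat-/- cells they ranged from 0 to 2 higher and 0 to 4 lower at 4 h, and 0 to 3 higher and 0 to 10 lower at 20 h. Against WT cells at 4 h, 9 to 21 were lower, and the 4 h response was more positive for 1 to 4 and more negative for 0 to 23. The median of Cd6-/- against WT cells at 0 h (0.24) ranged from -0.056 to 0.33, and that of the difference of 20 h responses (-0.30) from -0.38 to 0.0036, with the sign turned in each case by leaving out the Cd6-/- library of replicate 3 at 0 h.

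Of 205 calls of single named genes, 29 were lost with library totals, 12 with the compared groups alone, 10 with DESeq2, 7 with filterByExpr, 3 with RLE factors, 0 with the replicate block, and 63, 21, and 19 without replicates 1, 2, and 3. Cox7c and Cox6b2 had few reads, with SEs above those of the other genes in most comparisons.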
